A study of Mus musculus with 9 samples.

Results

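The metabotropic glutamate receptor genes Grm2, Grm3, Grm4, Grm5, Grm7 and Grm8 were read in cultured mouse cortical neurons by every array probe whose RefSeq accession maps to one of the 6 symbols. There were 11 such probes among the 41174 probes of the array, of which 26888 could be named, for 18327 genes. Grm5 had 4 probes, Grm7 had 3, and Grm2, Grm3, Grm4 and Grm8 had 1 each. Probes of these genes were taken by annotation and not by their values, but the genes themselves were chosen with earlier results of these data known. The cells came from the cortex of C57BL/6 embryos at embryonic day 15 and had been in culture for 12 days. The groups were cultures exposed to 25 µM bicuculline for 6 h (Bic), cultures exposed to 50 mM KCl for 6 h (KCl), and cultures without treatment (control), with 3 arrays each, numbered 1 to 3 in the labels. Bicuculline blocks GABA-A receptors, which carry fast inhibition, and raised potassium depolarises the cells directly. All cultures were primary cells of 1 strain, and the labels name no genetic change, no sex and no sorting, and do not say whether embryos were pooled. The labels do not say whether the 3 replicates of a group were separate cultures, so p-values measure array-to-array spread, part or all of which may be technical.

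Metabotropic glutamate receptors are G protein-coupled receptors that sense glutamate on a slower time scale than the ion channel receptors. Group I receptors, among them the product of Grm5, couple to Gq, phospholipase C and intracellular calcium, lie mostly at the edge of the postsynaptic density, and drive a form of long-term depression. Group II (Grm2, Grm3) and group III (Grm4, Grm7, Grm8) receptors couple to Gi/o, lower cyclic AMP, and mostly restrain transmitter release from the presynaptic side. Grm3 and Grm5 are also expressed by astrocytes.

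Expression was measured with an Agilent 1-colour array of the 44k format, to which cyanine 3-labelled material from 100 ng of RNA was hybridised. A level below is the processed signal of a probe as a percentage of the 75th percentile of the signal on the same array, and a change is the log2 ratio of group means with limma's standard error. A probe passed the test, or was called, at a Benjamini-Hochberg adjusted p under 0.05 in a limma fit of all 27779 probes that stood above background. The 75th percentile of the signal lay between 1586 and 3087 on the 9 arrays, 65.0% to 75.9% of spots were well above background, and 0 were saturated. The median log2 SD between replicates was 0.075, and the lowest correlation between arrays of a group was 0.9943. Per the file headers the arrays lay on 3 slides: slide 1 held Bic 1, Bic 2, control 1 and control 2, slide 2 held KCl 1, KCl 2, Bic 3 and control 3, and slide 3 held KCl 3 alone. Of 10 neuron markers 10 were measured, as were 12 of 12 astrocyte markers and 9 of 10 oligodendrocyte lineage markers. Over the array 14061 of 18327 named genes were measured, so these counts do not test the neuron label. They give no ground to read the cultures as neurons alone.

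Of the 11 probes, 9 stood above background and were tested, covering Grm3, Grm5, Grm7 and Grm8. In Bic cultures 4 of the 9 were higher than in control and 1, Grm3, was lower, while 39.9% of all probes were called in that comparison, 17.4% higher and 22.5% lower. With spike-in scaling and with normexp before the 75th percentile 0 were higher and 1 lower in Bic, and with median scaling 1 was higher and 1 lower. In KCl cultures 3 were higher and 3 lower than in control, against a background of 69.3% called, 36.3% higher and 32.9% lower. Between KCl and Bic 3 were higher in KCl and 3 lower, against 60.6% of all probes, 34.6% higher and 26% lower. Since calls were this common, the number of member probes called was not itself a departure from the array, and the values below concern which receptor moved, in which direction and by how much. The median change of the 9 probes was 0.12 in Bic, 0.05 in KCl and -0.03 in KCl over Bic, against -0.02, 0.05 and 0.08 over all probes. The arrays of the compared groups did not overlap for 7 probes in Bic over control, 6 in KCl over control and 6 in KCl over Bic, where 54.1%, 73% and 67.3% of all probes did not overlap. The Bic and the KCl comparison share the control arrays, and their values are given side by side for that reason.

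The upstream sequences of Grm3 and Grm8 are printed because these genes had the largest falls among the members and are each read by a single probe, a choice made after their values were seen. For each gene the sequence is the 250 bases before the start farthest upstream in the RefSeq table for build GRCm38.p6, read 5′ to 3′ on the strand of the gene. Capitals mark a match to the AP-1 motif TGANTCA, the site bound by Fos and Jun dimers.
Grm3, chr5:9725353-9725602, minus strand: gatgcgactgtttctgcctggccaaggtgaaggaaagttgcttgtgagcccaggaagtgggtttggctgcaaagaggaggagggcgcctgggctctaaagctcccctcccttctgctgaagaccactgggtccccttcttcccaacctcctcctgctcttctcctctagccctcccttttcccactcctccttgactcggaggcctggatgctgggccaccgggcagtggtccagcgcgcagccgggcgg
Grm8, chr6:28135147-28135396, minus strand: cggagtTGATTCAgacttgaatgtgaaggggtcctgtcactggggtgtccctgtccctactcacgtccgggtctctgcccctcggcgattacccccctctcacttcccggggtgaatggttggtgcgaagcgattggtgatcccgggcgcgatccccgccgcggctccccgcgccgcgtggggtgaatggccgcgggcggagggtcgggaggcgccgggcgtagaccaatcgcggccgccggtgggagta
The Grm3 sequence had a GC content of 62.4% and the Grm8 sequence 68.4%, against a median of 52.4% over 32817 sequences of the same length. Motifs were searched on both strands as the CRE (TGACGTCA), its half-site (TGACG), AP-1 (TGANTCA) and the Egr site (GCGTGGGCG), and a full CRE always contains the half-site. The Grm8 sequence held 1 AP-1 match, 244 bases before the start, a motif found in 6.75% of all such sequences, and the Grm3 sequence held no match to the 4 motifs. The other motifs were found in 1.55% (CRE), 17.7% (half-site) and 0.536% (Egr) of all sequences. RefSeq entries matched 4 of the 6 genes, with 7 sequences in all. A further Grm8 start carried the half-site 24 bases upstream, and the entries for Grm2 and Grm7 held no match. A match to these letters is a description and not evidence of binding.

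Grm5, the group I receptor, was read by a pair of probes under RefSeq accession NM_001081414 and a pair under NM_001143834, and the pairs behaved differently. Probe A_52_P181394 (NM_001081414) had levels of 36.5%, 34.8% and 35.4% on Bic arrays 1 to 3, 60.1%, 58.6% and 63.1% on KCl arrays, and 29.2%, 32.5% and 30.0% on control arrays. Every KCl array lay above every Bic array, and every Bic array above every control array. Relative to control the probe was 1.98-fold higher in KCl (log2 0.99 ± 0.05, adjusted p = 1.2e-06, limma, n = 3 per group) and 1.17-fold higher in Bic (0.22 ± 0.05, adjusted p = 0.0094). Against Bic it was higher in KCl by 0.77 ± 0.05 (adjusted p = 9.9e-06). Within slides its Bic change was 0.21 on slide 1 and 0.24 on slide 2. A change at least as large as the one in KCl was seen for 11.3% of all probes. In bulk RNA a change of this kind cannot be separated into the number of cells of a type and the RNA per cell, and this holds for every receptor described here.

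The other NM_001081414 probe, A_52_P675611, gave the same order. Its levels were 19.5%, 20.9% and 18.5% on Bic arrays, 31.3%, 32.8% and 31.1% on KCl arrays, and 15.9%, 17.6% and 16.9% on control arrays. It was 1.89-fold higher in KCl than in control (log2 0.92 ± 0.06, adjusted p = 3.8e-06, limma) and 1.17-fold higher in Bic (0.23 ± 0.06, adjusted p = 0.016), and again the 3 groups did not overlap. The Bic call of this probe ended without Bic 2 (0.18, adjusted p = 0.051) and without control 1 (0.19, adjusted p = 0.056). The Bic calls of both NM_001081414 probes ended with median scaling (adjusted p = 0.11 and 0.085), with spike-in scaling (0.13 and 0.086) and with normexp before the 75th percentile (0.5 and 1). Over the 9 arrays the levels of both NM_001081414 probes had a Pearson r of 0.9854, which is a description across arrays that fall into 3 groups. Among 27654 probes A_52_P675611 ranked 356 by its r with A_52_P181394, so a value this high is not particular to the pair.

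The probes under NM_001143834 showed little or no change. Probe A_51_P333441 had levels of 70.3%, 68.4% and 69.2% on Bic arrays, 68.8%, 66.5% and 68.3% on KCl arrays, and 63.1%, 63.0% and 64.6% on control arrays. Both treated groups lay just above control, by 0.12 ± 0.03 in Bic (adjusted p = 0.014, limma) and 0.09 ± 0.03 in KCl (adjusted p = 0.026). Its Bic call ended with median scaling (adjusted p = 0.31) and spike-in scaling (adjusted p = 0.38). Its KCl call ended with slide as a block (0.079, adjusted p = 0.19) and in the 6 KCl and control arrays alone (adjusted p = 0.056). The small KCl change turned negative when arrays were scaled by their median (-0.07) or by spike-in probes (-0.06), and its call ended without any 1 of KCl 1, KCl 3, control 1 or control 2 (adjusted p between 0.061 and 0.075). Probe A_51_P465591, the brightest of the 4, had levels of 512%, 486% and 465% on Bic arrays, 496%, 462% and 457% on KCl arrays, and 476%, 515% and 469% on control arrays. Its groups overlapped throughout. The change was 0.00 in Bic (95% interval -0.13 to 0.13, adjusted p = 0.98) and -0.05 in KCl (-0.18 to 0.09, adjusted p = 0.49), and both upper bounds lie below the change of either NM_001081414 probe in the same comparison.

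**Figure D1:**
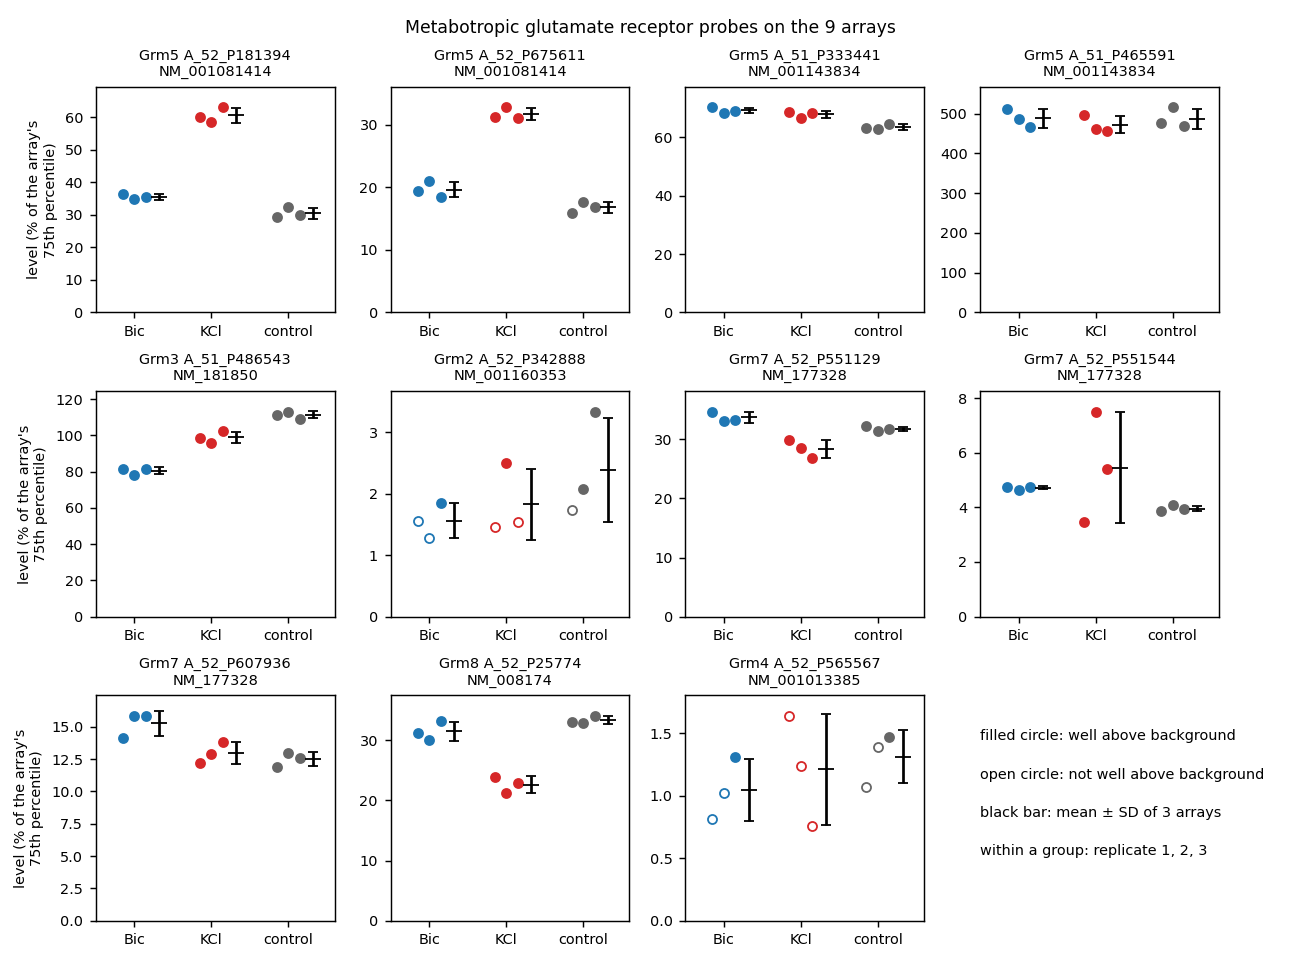
Level of each of the 11 metabotropic glutamate receptor probes on the 9 arrays, as a percentage of the array's 75th percentile, with the mean ± SD of 3 arrays in black and open circles for spots not well above background. The NM_001081414 probes of Grm5 are highest in KCl, Grm3 is lowest in Bic, Grm8 is lowest in KCl, and Grm2 and Grm4 lie close to background. Axes differ between probes, and levels of different probes are not comparable.

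The difference between the Grm5 probes was tested directly, as the change of a probe minus the change of the brightest probe of its gene on the same array. In KCl over control A_52_P181394 changed by 1.03 ± 0.06 more than A_51_P465591 (adjusted p = 2.3e-06, limma over 6929 such probe pairs), and A_52_P675611 by 0.97 ± 0.07 more (adjusted p = 7.1e-06). In KCl over Bic the differences were 0.82 (adjusted p = 2.3e-05) and 0.74 (adjusted p = 7.2e-05). Differences of at least these sizes in KCl over control were seen for 7.63% and 8.79% of all probe pairs. In Bic over control the difference was 0.22 ± 0.06 for A_52_P181394 (adjusted p = 0.044) and 0.22 ± 0.07 for A_52_P675611 (adjusted p = 0.066, or 0.044 with the replicate number as a block). The call for A_52_P181394 in Bic was fragile, since it ended without any 1 of the 3 Bic arrays, the 3 control arrays or KCl 2 (adjusted p between 0.067 and 0.15). The remaining probe A_51_P333441 did not pass against A_51_P465591, with 0.12 in Bic (adjusted p = 0.27), 0.14 in KCl (adjusted p = 0.1) and 0.02 in KCl over Bic (adjusted p = 0.86). Of the 5 member pairs, including those of Grm7, 1 was called in Bic over control, 2 in KCl over control and 2 in KCl over Bic, against 12.4%, 38% and 29.1% of all probe pairs.

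Averaged over both probes of each accession, the log2 level of NM_001081414 minus that of NM_001143834 was -2.83, -2.75 and -2.81 on Bic arrays, -2.09, -2.00 and -2.00 on KCl arrays, and -3.01, -2.91 and -2.95 on control arrays. The absolute value compares different probes and carries no meaning, but its shift between groups does not depend on how the arrays were scaled to each other by 1 factor per array. The KCl arrays stood clear of both other groups. Which exon or transcript end each probe reads is not given in the files used here, so the accessions name the probes and do not establish which Grm5 transcripts were counted.

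**Figure D2:**
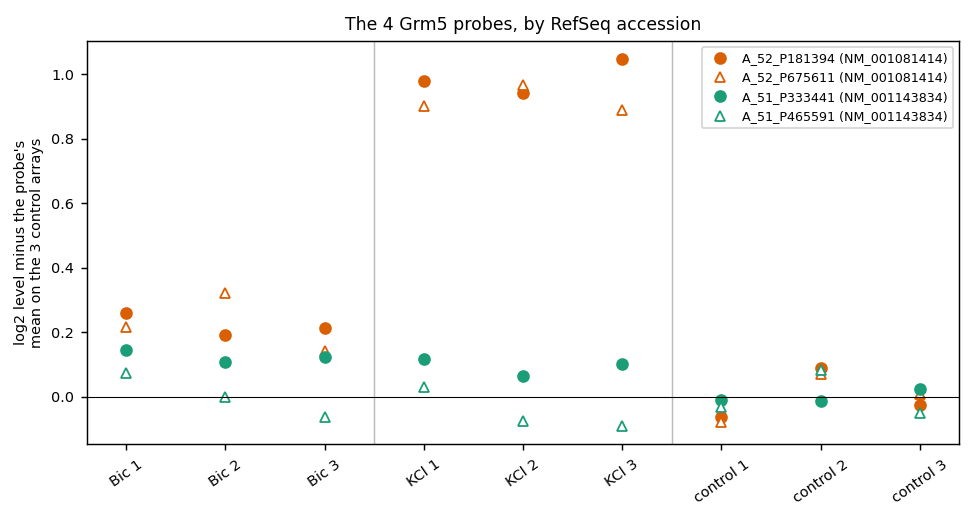
Log2 level of the 4 Grm5 probes on each array, minus the mean of the same probe over the 3 control arrays, coloured by RefSeq accession. On KCl arrays both NM_001081414 probes lie near 1 while both NM_001143834 probes stay near 0, and on Bic arrays the pairs lie closer together.

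Grm3, a group II receptor that also responds to N-acetylaspartylglutamate, fell in both treatments and fell further with bicuculline. Probe A_51_P486543 (NM_181850) had levels of 81.7%, 78.3% and 81.4% on Bic arrays, 98.6%, 96.0% and 102% on KCl arrays, and a mean of 111% ± 1.91 on control arrays (SD, n = 3), with a lowest control value of 109%. The order was control above KCl above Bic, with no overlap between any groups. The probe was 1.38-fold lower in Bic than in control (log2 -0.47 ± 0.04, adjusted p = 4.6e-05, limma) and 1.13-fold lower in KCl (-0.17 ± 0.04, adjusted p = 0.0039). It was higher in KCl than in Bic by 0.30 ± 0.04 (adjusted p = 0.00026), a call that ended with median scaling (0.18, adjusted p = 0.068), spike-in scaling (0.13, adjusted p = 0.35) and normexp before the 75th percentile (0.29, adjusted p = 0.052). That last setting also ended the KCl call against control (-0.14, adjusted p = 0.2). Within slides the Bic difference was -0.49 on slide 1 and -0.43 on slide 2, and the KCl difference on slide 2 was -0.17. A fall or rise at least as large as the Bic change was seen for 12.7% of all probes.

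Because Grm3 is also an astrocyte gene, the astrocyte markers are given beside it. In Bic 0 of 12 astrocyte markers were higher and 5 were lower than in control, with a list median of -0.12 against -0.03 over all genes, of which 25.7% were lower. The count of lower markers was 2 without control 3, 3 without Bic 3, 1 with spike-in scaling and 0 with normexp before the 75th percentile. Gjb6, a gap junction protein of astrocytes, was 1.82-fold lower (-0.87 ± 0.16, adjusted p = 0.0039, limma), and Fgfr3, a growth factor receptor of astrocytes, 1.21-fold lower (-0.28 ± 0.07, adjusted p = 0.016), although another Fgfr3 probe had 0.28. The Gjb6 probe was dim, averaging 3.27% in Bic and 5.95% in control. The Fgfr3 call ended without control 1 (adjusted p = 0.058), without control 3 (0.053), with spike-in scaling (0.25) and with that normexp setting (0.43), where Gjb6 was -0.47 (adjusted p = 1). The summed level of the 12 markers was 15877% to 16097% on Bic arrays and 15863% to 17121% on control arrays, so the sums overlapped. Their part in the Grm3 result was not tested.

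Grm2, the other group II receptor, lay at the edge of detection. Probe A_52_P342888 read 1.56%, 1.27% and 1.85% on Bic arrays, 1.45%, 2.50% and 1.54% on KCl arrays, and 1.73%, 2.08% and 3.34% on control arrays. It was well above background on 1 Bic, 1 KCl and 2 control arrays, and the groups overlapped. It was not tested, and no fold is given.

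Grm8, a presynaptic group III receptor, was lower in KCl and did not pass the test in Bic. Probe A_52_P25774 (NM_008174) had levels of 31.2%, 30.0% and 33.1% on Bic arrays, 23.8%, 21.1% and 22.8% on KCl arrays, and 33.0%, 32.9% and 34.0% on control arrays. Every KCl array lay below every other array, while Bic and control overlapped. The probe was 1.48-fold lower in KCl than in control (log2 -0.56 ± 0.06, adjusted p = 4.5e-05, limma) and 1.39-fold lower in KCl than in Bic (-0.48 ± 0.06, adjusted p = 0.00018). In Bic the change was -0.08 ± 0.06 (95% interval -0.21 to 0.04, adjusted p = 0.27). On slide 2 the difference was -0.60 for KCl over control and -0.56 for KCl over Bic. Both KCl calls ended when the background was corrected with normexp before scaling (-0.09, adjusted p = 0.8, and -0.02, adjusted p = 0.97), a setting in which the median change of all probes was 0.29 for KCl over control and 0.27 for KCl over Bic. A change at least as large as that in KCl over control was seen for 31.2% of all probes.

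Grm7, a group III receptor of the presynaptic active zone with low affinity for glutamate, was read by 3 probes of 1 accession (NM_177328), whose calls differed. The brightest, A_52_P551129, had levels of 34.7%, 33.2% and 33.3% on Bic arrays, 29.9%, 28.5% and 26.8% on KCl arrays, and 32.2%, 31.4% and 31.7% on control arrays. It was 1.12-fold lower in KCl than in control (-0.16 ± 0.05, adjusted p = 0.013, limma) and 1.19-fold lower in KCl than in Bic (-0.25 ± 0.05, adjusted p = 0.0021), and did not pass in Bic (0.09 ± 0.05, adjusted p = 0.18). With slide as a block the KCl change was -0.11 (adjusted p = 0.12), with normexp and quantile normalization it was also -0.11 (adjusted p = 0.06), and with normexp and the 75th percentile it turned to 0.18 (adjusted p = 0.5). The KCl fall of this probe therefore did not hold across these settings.

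Probe A_52_P607936 of Grm7 read 14.1%, 15.9% and 15.8% on Bic arrays, 12.2%, 12.9% and 13.9% on KCl arrays, and 11.9%, 13.0% and 12.6% on control arrays. It was 1.22-fold higher in Bic than in control (0.29 ± 0.07, adjusted p = 0.01, limma), with Bic clear of both other groups, and KCl overlapped control (0.05, adjusted p = 0.49). The Bic call ended with spike-in scaling (0.31, adjusted p = 0.062) and with normexp in either form (0.19, adjusted p = 1, and 0.16, adjusted p = 0.095). Its change in KCl over Bic was -0.24 ± 0.07 (adjusted p = 0.016), a call that ended without Bic 2, Bic 3 or KCl 1 (adjusted p between 0.054 and 0.057). The dimmest probe, A_52_P551544, read 4.76%, 4.65% and 4.75% on Bic arrays, 3.47%, 7.51% and 5.40% on KCl arrays, and 3.85%, 4.07% and 3.95% on control arrays. The KCl arrays spread from below to above all others, and no comparison passed (0.25 ± 0.23 in Bic, adjusted p = 0.44, and 0.39 ± 0.23 in KCl, adjusted p = 0.17). Without KCl 1 the KCl change was 0.69 (adjusted p = 0.0028), so that array decides the call. Against the brightest probe no Grm7 pair passed, with adjusted p between 0.11 and 0.95. Without KCl 1 the A_52_P551544 pair passed at 0.89 in KCl over control (adjusted p = 0.00054) and 0.72 in KCl over Bic (adjusted p = 0.0025), against 0.56 and 0.39 with it, and the A_52_P607936 pair passed at 0.30 in KCl over control (adjusted p = 0.049).

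Grm4, the remaining group III receptor, was not measurable at this signal. Probe A_52_P565567 read 0.814%, 1.02% and 1.31% on Bic arrays, 1.64%, 1.23% and 0.757% on KCl arrays, and 1.07%, 1.39% and 1.47% on control arrays. It was well above background on 1 Bic, 0 KCl and 1 control array, and was not tested.

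**Figure D3:**
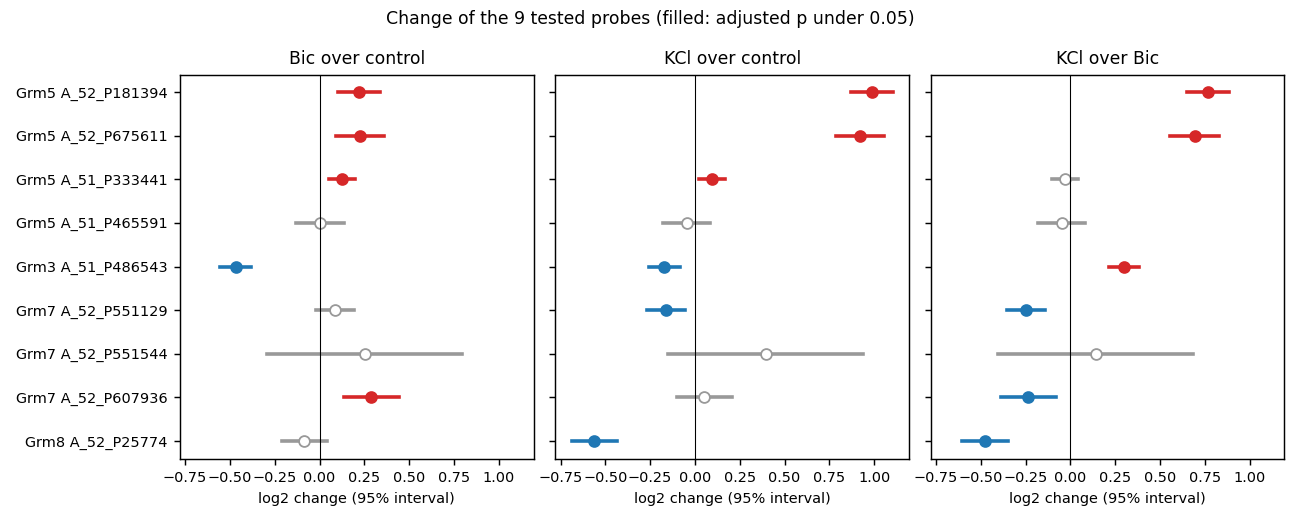
Log2 change of the 9 tested probes with its 95% interval for Bic over control, KCl over control and KCl over Bic, filled where the adjusted p was under 0.05 (red higher, blue lower). Grm5 A_52_P181394 reaches 0.99 in KCl, Grm3 has its largest fall, -0.47, in Bic, and Grm8 its largest, -0.56, in KCl.

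The order of levels across conditions differed between receptors in the fit as reported. For the NM_001081414 probes of Grm5 it was KCl, Bic, control from high to low, with each neighbour distinct. For Grm3 it was control, KCl, Bic, again with each neighbour distinct. For Grm8 control and Bic did not differ beyond their spread and both lay above KCl. The 5 calls in Bic over control had the same sign within slide 1 and within slide 2. The 6 calls in KCl over control and the 6 in KCl over Bic had the same sign within slide 2, the slide with arrays of all 3 groups. Since the compared groups did not overlap for any of these calls, their sign within a slide was fixed in advance and adds no support. With slide as a block 2 of the 6 calls in KCl over control ended, those of Grm5 A_51_P333441 (adjusted p = 0.19) and Grm7 A_52_P551129 (adjusted p = 0.12). On slide 2 A_52_P181394 was 0.99 higher in KCl than in control.

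Genes whose brightest probe tracked a receptor most closely over the 9 arrays are named as a description, since the arrays fall into 3 groups. For Grm3 they were Grk3, a receptor kinase (Pearson r = 0.9949), Rarb, a retinoic acid receptor (0.9893), and St6galnac5, a sialyltransferase (0.9882). Grk3 changed by -0.70 in Bic and -0.28 in KCl, the same order as Grm3. For Grm8 they were Mtif3, a mitochondrial translation factor (0.9935), Kctd5 (0.9914) and Zbed5 (0.9903), with -0.63, -0.32 and -0.87 in KCl. For Grm7 they were Lrrc51 (0.9887), Tenm3, a teneurin adhesion protein (0.9795), and Zfp787 (0.9741). For Grm5 probe A_52_P181394, chosen after its values were seen because it is not the brightest Grm5 probe, they were Mtarc2 (0.9982), B3gat2 (0.9982) and the growth factor gene Fgf9 (0.9977).

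The genes that supply and clear glutamate were described next, each gene by its brightest probe. Over all 14061 genes read this way 42.3% were called in Bic over control (16.7% higher, 25.7% lower), 70.8% in KCl over control (35.3% higher, 35.5% lower) and 63.1% in KCl over Bic (35% higher, 28.2% lower), with median changes of -0.03, 0.02 and 0.07. Of 15 measured glutamate supply and uptake genes 4 were higher and 6 lower in Bic (median -0.04), and 7 higher and 2 lower in KCl (0.15). Slc17a6, the vesicular glutamate transporter VGLUT2, rose 1.72-fold in Bic (0.78 ± 0.03, adjusted p = 1.5e-06, limma) and 1.63-fold in KCl (0.70 ± 0.03, adjusted p = 6e-07). Gls2, a glutaminase, rose 1.55-fold in Bic (0.63 ± 0.08, adjusted p = 0.00053) and was 1.44-fold lower in KCl than in Bic. For KCl over Bic 9 of the 15 were higher and 2 lower (median 0.21), with the cystine-glutamate exchanger gene Slc7a11 1.42-fold higher. That split depended on the scaling, with 2 higher and 3 lower with median scaling, 1 and 1 with spike-in scaling, and 0 and 1 with normexp before the 75th percentile, where Slc7a11 did not pass (adjusted p = 0.16).

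Downstream of group I receptors, 4 of 18 Gq pathway genes were higher and 8 lower in Bic (median -0.03), and 9 were higher and 5 lower in KCl (0.10). Trpc5, a cation channel gene, rose 1.32-fold in Bic (0.40 ± 0.05, adjusted p = 0.00065, limma). Trpc1, of the same channel family, rose 1.91-fold in KCl (0.94 ± 0.07, adjusted p = 1.2e-05), and Prkca, a protein kinase C, rose 1.71-fold (0.77 ± 0.05, adjusted p = 5.5e-06). Set against Bic, 8 were higher in KCl and 3 lower (0.13), among them Trpc1 by 0.62 and the diacylglycerol kinase gene Dgkz by 0.38. With spike-in scaling the balance turned to 3 higher and 6 lower in KCl over control and 1 higher and 3 lower in KCl over Bic, and Dgkz did not pass (adjusted p = 0.16). With normexp before the 75th percentile 0 were called in Bic, Trpc5 included (adjusted p = 0.98), and Trpc1 did not pass in KCl over Bic (adjusted p = 0.06).

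For the Gi/o pathway of group II and III receptors, 4 of 20 genes were higher and 6 lower in Bic (median 0.03), and 9 were higher and 3 lower in KCl (0.13). Kcnj3 and Kcnj6 encode GIRK potassium channel subunits that open on Gi/o signalling. Kcnj3 averaged 24.0% in Bic, 39.0% in KCl and 12.3% in control, a 1.95-fold rise in Bic (0.97 ± 0.05, adjusted p = 7.4e-06, limma) and a 3.17-fold rise in KCl (1.66 ± 0.05, adjusted p = 1.2e-07). Kcnj6 rose 2.42-fold in KCl (1.27 ± 0.06, adjusted p = 6.8e-07). Adcy8, a calcium-stimulated adenylyl cyclase, rose 2.08-fold in Bic (1.06 ± 0.05, adjusted p = 2.9e-06). In KCl over Bic 13 of the 20 were higher and 3 lower (0.17), with Kcnj6 higher by 0.98 and Kcnj3 by 0.70. With median scaling and with spike-in scaling that split was 3 higher and 3 lower. With normexp before the 75th percentile Kcnj3 did not pass in Bic (0.77, adjusted p = 0.068), nor Kcnj6 in KCl over Bic (adjusted p = 0.077).

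Among scaffolds, partners and desensitising proteins 5 of 26 were higher and 7 lower in Bic (median -0.07), and 14 were higher and 5 lower in KCl (0.18). Grasp, also known as tamalin, which binds group I receptors and takes part in their trafficking, averaged 177% in Bic, 389.6% in KCl and 58.1% in control. It rose 3.05-fold in Bic (1.61 ± 0.06, adjusted p = 1.6e-06, limma) and 6.71-fold in KCl (2.75 ± 0.06, adjusted p = 3.3e-08). Shank2, a postsynaptic scaffold tied to mGluR5 through Homer, rose 2.28-fold in Bic (1.19 ± 0.11, adjusted p = 8.7e-05). Grk5, a receptor kinase, rose 3.25-fold in KCl (1.70 ± 0.05, adjusted p = 8e-08). Compared with Bic, KCl had 16 of the 26 higher and 4 lower (0.27), including Grasp by 1.14 and Rgs2, a regulator of Gq signalling, by 0.84 at its brightest probe and -0.17 at its other probe. With spike-in scaling the splits were 7 higher and 5 lower in KCl over control and 8 higher and 4 lower in KCl over Bic. The Shank2 call ended with normexp before the 75th percentile (0.82, adjusted p = 0.28).

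Of 16 genes of mGluR-dependent long-term depression 4 were higher and 6 lower in Bic (median -0.02), and 8 were higher and 4 lower in KCl (0.10). Nptx2, a neuronal pentraxin that gathers AMPA receptors, rose 4.37-fold in Bic (2.13 ± 0.06, adjusted p = 2.1e-07, limma) and 4.74-fold in KCl (2.25 ± 0.06, adjusted p = 5.3e-08). Rheb, the GTPase that activates mTOR, rose 1.73-fold in Bic and 2.45-fold in KCl (1.29 ± 0.05, adjusted p = 4.4e-07). In KCl over Bic 8 were higher and 2 lower (0.17), among them Arc, which drives AMPA receptor endocytosis, at 247% in KCl and 95.8% in Bic (1.36 ± 0.05, adjusted p = 1.3e-06). Arc averaged 151% in control, and was 1.57-fold lower in Bic than in control (-0.65, adjusted p = 5.9e-05) and 1.63-fold higher in KCl (0.71, adjusted p = 1.1e-05). The Bic split was 3 higher and 3 lower without Bic 1 and without control 3, and that of KCl over Bic was 2 and 2 with median and with spike-in scaling. The lists were not tested as sets, and nothing particular to them is read from these counts.

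**Figure D4:**
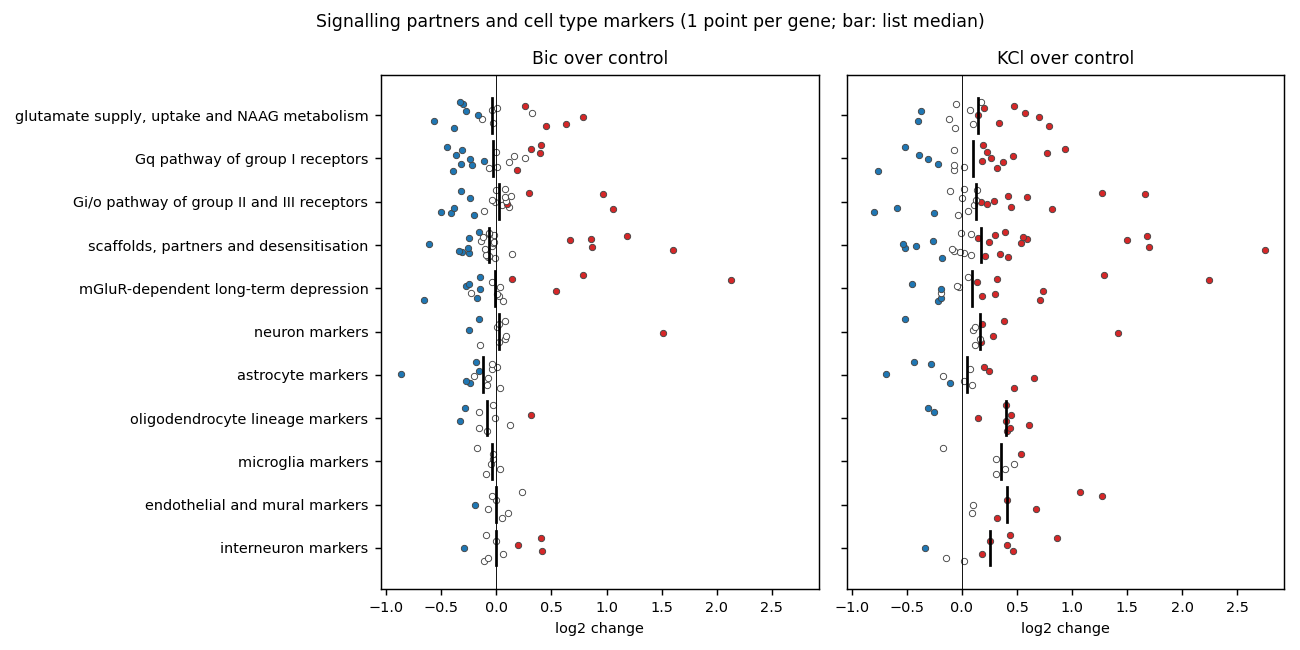
Log2 change of each gene of the 5 signalling lists and 6 cell type marker lists in Bic over control and KCl over control, 1 point per gene, red higher and blue lower at an adjusted p under 0.05, with list medians as black bars. The receptor scaffold list reaches 2.75 (Grasp in KCl), and the endothelial and mural list has a median of 0.41 in KCl and 0.00 in Bic.

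Markers of cell types are given beside the receptor results, each gene by its brightest probe. Over all genes 70.8% were called in KCl over control (35.3% higher, 35.5% lower). In Bic over control 42.3% were called (16.7% higher, 25.7% lower). The marker lists were not tested as sets, and nothing particular to a cell type is read from their counts. Of 10 neuron markers 1 was higher and 2 lower in Bic, and 5 higher and 1 lower in KCl. Nefl, a neurofilament subunit, rose 2.86-fold in Bic and 2.67-fold in KCl, while Tubb3, a neuronal tubulin, fell 1.43-fold in KCl and Rbfox3, a neuronal RNA-binding protein, fell 1.19-fold in Bic. The summed level of the neuron markers was 14235% to 14674% on Bic arrays, 14432% to 14989% on KCl arrays and 11387% to 11849% on control arrays. Nefl carried that rise, and without it the sum of the other 9, added after seeing the data, was 9648% to 9976% on Bic arrays, 10055% to 10595% on KCl arrays and 9816% to 10161% on control arrays, with overlap. The Rbfox3 call in Bic ended with spike-in scaling (adjusted p = 0.15). Of the 12 astrocyte markers 4 were higher and 4 lower in KCl, with a sum of 17805% to 18689% on KCl arrays, above the control range given with Grm3. Marker sums were formed only with the 75th percentile and were not recomputed with other scalings. The median KCl change of all probes was 0.05 there and -0.11 with median scaling, so a sum's place against control may shift. Gfap, an astrocyte filament gene, was 1.58-fold higher in KCl, and Gjb6, dim at 3.77% in KCl, was 1.61-fold lower. The Gjb6 call ended with slide as a block (-0.61, adjusted p = 0.069), and with normexp before the 75th percentile Gfap did not pass (0.45, adjusted p = 0.15) and Gjb6 turned to 0.70. With slide as a block 3 astrocyte markers were higher and 2 lower in KCl.

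Of 7 measured endothelial and mural markers 5 were higher and 0 lower in KCl (median 0.41), and 0 were higher and 1, Pdgfrb, lower in Bic. The Pdgfrb call ended with spike-in scaling (adjusted p = 0.33, limma), normexp before the 75th percentile (0.74) and normexp with quantile normalization (0.092). The sum of the 7 markers was 2380% to 2619% on Bic arrays, 4282% to 4751% on KCl arrays and 2417% to 2552% on control arrays. Most of the KCl rise in this sum came from Tagln alone, which averaged 2958% in KCl and 1223% in control. Tagln, a smooth muscle gene, rose 2.42-fold and Vtn 2.10-fold in KCl, while the endothelial markers Cldn5, Pecam1 and Cdh5 did not stand above background. Vtn did not pass in KCl with normexp before the 75th percentile (1.32, adjusted p = 0.074). Of 9 oligodendrocyte lineage markers 7 were higher and 2 lower in KCl (median 0.40), with Olig2 1.36-fold and Mag 1.52-fold higher, and in Bic 1 was higher (Olig2, 1.24-fold) and 2 were lower, among them Mbp (1.26-fold). The Mag call ended without KCl 1 (adjusted p = 0.071), KCl 2 (0.063) or control 1 (0.073), and the Bic split was 1 higher and 4 lower without KCl 2. With normexp before the 75th percentile Mag did not pass in KCl (0.075), nor Mbp (0.3) and Olig2 (0.082) in Bic. The Mbp call in Bic also ended with spike-in scaling (0.07). The oligodendrocyte sum was 3132% to 3258% on Bic arrays, 3730% to 3791% on KCl arrays and 3272% to 3398% on control arrays, and Mog did not stand above background.

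Of 6 measured microglia markers 0 were called in Bic by limma (0 at an unadjusted p under 0.05) and 1 was higher in KCl, Csf1r, 1.45-fold. Single arrays decided that count, with 6 of 6 higher without KCl 1 and 0 without KCl 2 or without KCl 3 (Csf1r adjusted p = 0.054 and 0.053). The Csf1r call also ended with median scaling (0.059), spike-in scaling (0.077) and slide as a block (0.094). The microglia sums were 265% to 406% on Bic arrays, 351% to 531% on KCl arrays and 329% to 346% on control arrays. The microglia markers Itgam, P2ry12, Tmem119 and Cd68 did not stand above background. Of 9 interneuron markers 3 were higher and 1 lower in Bic, and 6 higher and 1 lower in KCl, with Sst, a neuropeptide of interneurons, 1.33-fold higher in Bic and 1.82-fold in KCl, and Gad2, a GABA-synthesising enzyme, 1.33-fold and 1.38-fold. With normexp before the 75th percentile 0 interneuron markers were called in Bic, where Sst had an adjusted p of 0.24 and Gad2 0.25. Gad2 did not pass in KCl with that setting either (adjusted p = 0.25). The interneuron sum was 9823% to 10148% on Bic arrays, 11639% to 12492% on KCl arrays and 8790% to 8946% on control arrays, and Pvalb did not stand above background. Most of the rise in this sum came from Sst alone, which averaged 3549% in Bic, 4867% in KCl and 2678% in control. The part of these cell types in the receptor changes was not tested.

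**Figure D5:**
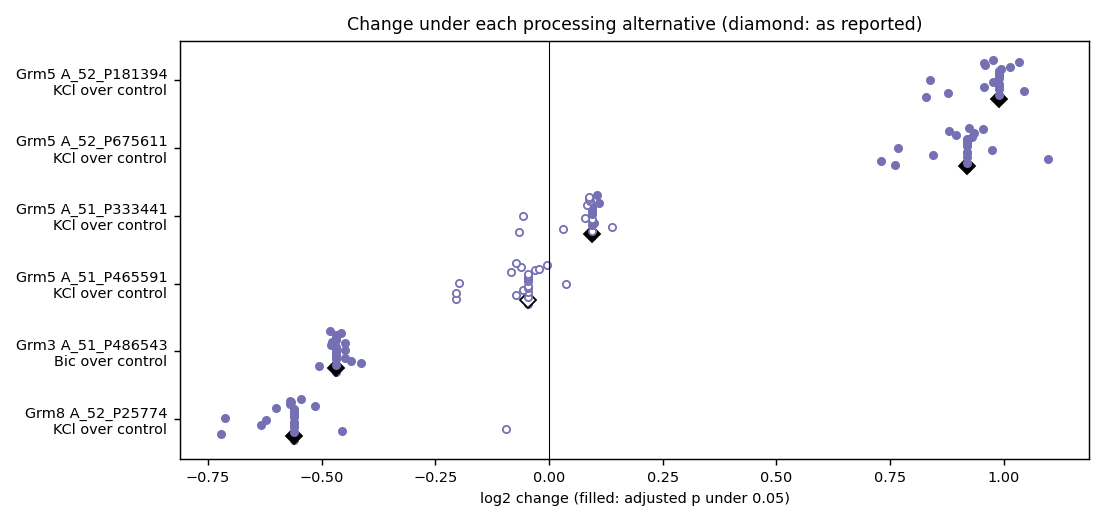
Log2 change of 6 member probe results as reported (black diamond) and under each processing alternative (circle, filled where the adjusted p was under 0.05). The KCl change of both NM_001081414 probes of Grm5 and the Bic change of Grm3 stay filled throughout, the Grm8 change in KCl is open once, at -0.09, and the NM_001143834 probes of Grm5 lie around 0.

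The direction of calls over all probes moved with how the arrays were scaled. Relative to the 75th percentile the median KCl change of all probes was 0.05. It was -0.11 with median scaling, -0.10 with spike-in scaling and 0.29 with normexp and the 75th percentile. Of the calls in KCl over control 52.5% were higher, against 35.5% with median scaling, 42.1% with quantile normalization and 36.6% with spike-in scaling. Of the calls in Bic over control 43.6% were higher, against 59.0% after spike-in scaling and 66.0% after normexp with the 75th percentile. In KCl over Bic 57.1% were higher, against 37.0% with median scaling, 44.6% with quantile normalization, 45.1% with normexp and quantile normalization, and 29.7% with spike-in scaling. The KCl rise of Grm5 A_52_P181394 kept its direction and passed under each of these scalings.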

How the data were processed

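The authors deposited the scanner output of 9 one-colour arrays as signal intensity. The file headers name Agilent Feature Extraction 10.7.3.1, while the submitters' processing notes name 10.5.1.1. This deposited intensity was already background-subtracted within each array, per the file headers, and carried no scaling between arrays; the deposited value table equalled it on all 45018 features. The processed signal was set to log2, each array's 75th percentile over non-control spots was subtracted, outlier spots were left out and spots of a probe were averaged.

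Kept were 27779 of 41174 probes: those marked well above background throughout 1 or more groups, with 2 or more measured arrays in each. Accessions were matched to symbols through a RefSeq table of GRCm38.p6; 14286 probes stayed unnamed. The array's own build differs, so no probe coordinates are given, and those of the upstream sequences are RefSeq's on GRCm38.p6. limma 3.58.1 in R 4.3.3 was fitted to all 9 arrays with group as the only term (6 residual degrees of freedom, prior 1.71), two-sided, with Benjamini-Hochberg adjustment over all kept probes within each of 3 comparisons. Within-gene probe differences were fitted likewise over 6929 pairs. Scripts were tested on simulated data. The number of arrays limits the precision.

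The members and gene lists were chosen with earlier results of these data known. Named are all members, the 2 genes per list and comparison with the largest change among those called without overlap, and the 3 genes most correlated with each member whose brightest probe was called. A few genes that this rule names are not reported here. Alternatives were other background corrections, scalings, filters, priors, sample sets, slide and replicate blocks, and leaving out each array. Whether replicate numbers pair the samples was checked by correlating same-numbered deviations from the group means: r was 0.345, 0.209 and 0.669 for Bic with control and between -0.484 and -0.061 for KCl with either. Same-numbered Bic and control arrays thus deviated alike, and same-numbered KCl arrays did not deviate like either. Same-numbered Bic and control arrays also share a slide, and r between differently numbered arrays was not computed. Pairing by number was therefore not separated from slide.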

Additional observations from a re-analysis of the deposited data

How the results depend on the processing

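Each result was recomputed under up to 23 alternatives. The KCl rise of Grm5 A_52_P181394 and A_52_P675611, their KCl difference from A_51_P465591 and the Bic fall of Grm3 kept direction and call in all of them. Of 606 values for single member probes 543 did so, of 330 for probe pairs 304, and of 1403 for named list genes 1341.

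Normexp with the 75th percentile left 1 member probe called in Bic over control, 2 in KCl over control and 2 in KCl over Bic, against 5, 6 and 6 as reported. Over all probes it called 1029, 6112 and 3063, against 11097, 19245 and 16845. Spike-in scaling gave 1 member call in Bic and 4717 calls over all probes there, median scaling and normexp with quantile normalization gave 2 in Bic each, and 1 probe per gene gave 1 in Bic and 3 in each KCl comparison. Leaving out 1 array gave 4 to 5 member calls in Bic, 5 to 6 in KCl over control and 5 to 6 in KCl over Bic. Probe pairs called in Bic were 0 with normexp (both ways), quantile normalization, no filter on dim probes, or a trended and robust prior, and 0 to 1 without 1 array, as against 1; at an unadjusted p under 0.05, limma as reported had 2 of the 5. In KCl over control 2 to 4 pairs were called without 1 array, with 4 without KCl 1, and in KCl over Bic 2 to 3. Genes called over the lists were 12 (Bic), 36 (KCl) and 20 (KCl over Bic) with normexp and the 75th percentile, 31 (Bic) and 41 (KCl over Bic) with spike-in scaling, and 59 (KCl over Bic) with median scaling, against 70, 101 and 103. Without 1 array they were 57 to 73, 94 to 104 and 91 to 100.

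The replicate block raised the called Bic pairs to 2, A_52_P675611 being added at an adjusted p of 0.044, and the higher microglia markers in KCl over control to 2, against 1, and moved no other count of calls by over 1.5 times. In the 6 Bic and control arrays alone Grm7 A_52_P551544 passed, with the block (adjusted p = 0.012) and without (0.0028), at 0.25. In KCl over control the block added the Grm7 A_52_P607936 pair (0.21, adjusted p = 0.039). The block within 6 arrays was chosen after seeing the data. For KCl, whose same-numbered deviations had a negative r, Grm7 A_52_P551129 did not pass against control with the block in 6 arrays (adjusted p = 0.055).

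Signs reversed for small changes. Grm5 A_51_P465591 in Bic was -0.012 with normexp and the 75th percentile, -0.034 with median scaling and between -0.033 (without Bic 1) and 0.044 (without control 2) when 1 array was left out, with -0.013 without control 1 and -0.023 without control 3. With slide as a block it was 0.037 in KCl and 0.034 in KCl over Bic. Grm5 A_51_P333441 in KCl was -0.065 with median scaling and -0.057 with spike-in scaling. Its KCl over Bic change minus that of A_51_P465591 was -0.043 with normexp and quantile normalization, -0.080 with the slide block, and -0.0092 (without KCl 3) to 0.050 (without Bic 3) leaving out 1 array. Grm7 A_52_P607936 in KCl was -0.044 with normexp and quantile normalization, -0.099 with quantile normalization, -0.11 with median scaling, -0.099 with spike-in scaling and -0.029 with the slide block, and in KCl over Bic it was 0.45 with normexp and the 75th percentile. Its KCl over Bic change minus that of A_52_P551129 was -0.045 with normexp and quantile normalization, -0.068 with quantile normalization, -0.12 with the slide block, and -0.078 (without KCl 3) to 0.095 (without KCl 1) leaving out 1 array. Grm7 A_52_P551544 in KCl over Bic was -0.044 and -0.043 with quantile normalization after and without normexp, -0.029 with spike-in scaling, and -0.12 (without KCl 2) to 0.43 (without KCl 1) leaving out 1 array. Normexp with the 75th percentile turned Grm7 A_52_P551129 to 0.18 in KCl and 0.12 in KCl over Bic, and Gjb6 in KCl to 0.70 (adjusted p = 0.44). The cause of these changes was not tested. Of the 61 named list results 29 ended with normexp and the 75th percentile. The deposited value table gave no other value. Grm2 and Grm4 are limited by signal over background.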
